A study of Mus musculus with 6 samples.

Results

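The genes described here are 36 genes of DNA replication and mitosis, taken by symbol from an FPKM table of 11789 mouse protein-coding genes, in which all 36 were listed. They were divided into 17 S-phase genes, whose products control entry into S phase, load and drive the replication machinery or supply its nucleotides, and 19 mitotic genes, whose products condense, attach and separate chromosomes. The RNA came from alveolar macrophages, phagocytes that live on the airspace side of the lung, of C57BL/6 mice. Libraries A20-1, A20-3 and A20-4 are labelled as A20 conditional knockout and libraries BLM1, BLM2 and BLM3 were taken as wild type. A20, the product of Tnfaip3, edits ubiquitin chains and restrains NF-κB signalling. The series title names an exposure, and its abbreviation BLM stands only in the names of the libraries taken as wild type. All 6 libraries were taken as made after that exposure, so no unexposed library stands beside them. The driver of the deletion, the agent's dose and the interval before collection are not stated in the labels, nor is the number of animals behind a library. Spread between libraries may therefore be partly technical, and p-values refer to that spread alone.

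Cells that divide load the Mcm2 to Mcm7 helicase onto origins in G1 with the help of Cdc6 and Cdt1, fire it in S phase with Cdc45 and the GINS complex, and then raise cyclin A, cyclin B and Cdk1 to enter mitosis. E2F factors drive the S-phase genes, and the mitotic genes are switched on later by the B-Myb and FoxM1 complexes, which act through the CHR element of their promoters, often beside CCAAT boxes bound by NF-Y. Alveolar macrophages are long-lived cells that renew themselves in the lung by local division, at a low rate in the resting tissue.

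Promoter letters are given for both groups of genes, since the factors named above read such motifs. RefSeq promoter windows on GRCm38.p6, from 250 bases before to 50 bases after the annotated start, were matched for 30 of the 36 genes, 14 of the S-phase and 16 of the mitotic set. The E2F letters TTTNNCGC, searched on both strands, were present in 7 of 14 S-phase genes (50%) and 1 of 16 mitotic genes (6.25%), against 8.13% of 11740 windows of genes in the table and 5.17% of all 32851 windows. The CHR letters TTTGAA were present in 2 of 14 S-phase genes (14.3%) and 11 of 16 mitotic genes (68.8%), against 12.4% of table windows and 17.9% of all windows. The letters CCAAT were present in 9 of 14 S-phase (64.3%) and 14 of 16 mitotic genes (87.5%), against 37.6% and 37.4%. Every mitotic gene with CHR letters also had CCAAT letters, 11 in all. No test was made on these shares, and a match of letters does not show that a factor binds there. The stretches printed here lie before the RefSeq start, for 3 S-phase genes with the E2F letters in capitals, 4 mitotic genes with the CHR letters in capitals, and Cdk1, the only gene of the 30 with both kinds.
Mcm5 (E2F, chr8:75109341-75109382, plus strand): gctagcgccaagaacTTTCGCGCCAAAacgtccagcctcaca
Mcm6 (E2F, chr1:128359730-128359830, minus strand): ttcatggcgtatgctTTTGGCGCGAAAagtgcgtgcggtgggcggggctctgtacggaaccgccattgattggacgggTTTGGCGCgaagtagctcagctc
Cdc6 (E2F, chr11:98907998-98908035, plus strand): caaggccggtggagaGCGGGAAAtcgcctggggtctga
Mki67 (CHR, chr7:135716457-135716510, minus strand): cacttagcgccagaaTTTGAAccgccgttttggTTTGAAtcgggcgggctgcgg
Top2a (CHR, chr11:99024192-99024383, minus strand): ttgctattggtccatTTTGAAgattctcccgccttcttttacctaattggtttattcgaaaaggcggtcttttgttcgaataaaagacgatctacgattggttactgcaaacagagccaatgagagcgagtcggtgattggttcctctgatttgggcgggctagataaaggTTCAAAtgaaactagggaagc
Kif11 (CHR, chr19:37376348-37376381, plus strand): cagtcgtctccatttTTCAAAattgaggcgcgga
Cdc20 (CHR, chr4:118437344-118437376, minus strand): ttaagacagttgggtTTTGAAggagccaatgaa
Cdk1 (E2F and CHR, chr10:69352913-69353058, minus strand): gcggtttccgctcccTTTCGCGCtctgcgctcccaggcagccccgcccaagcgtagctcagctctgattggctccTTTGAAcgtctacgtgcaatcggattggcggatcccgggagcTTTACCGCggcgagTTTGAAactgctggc
Each stretch reads 5′ to 3′ on the gene's own strand, and capitals in the reverse complement, as in Cdc6 and Kif11, are the motif on the other strand. The 12 capitals of Mcm5 and the first 12 of Mcm6 are a pair of overlapping E2F matches, 1 on each strand.

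**Figure D1:**
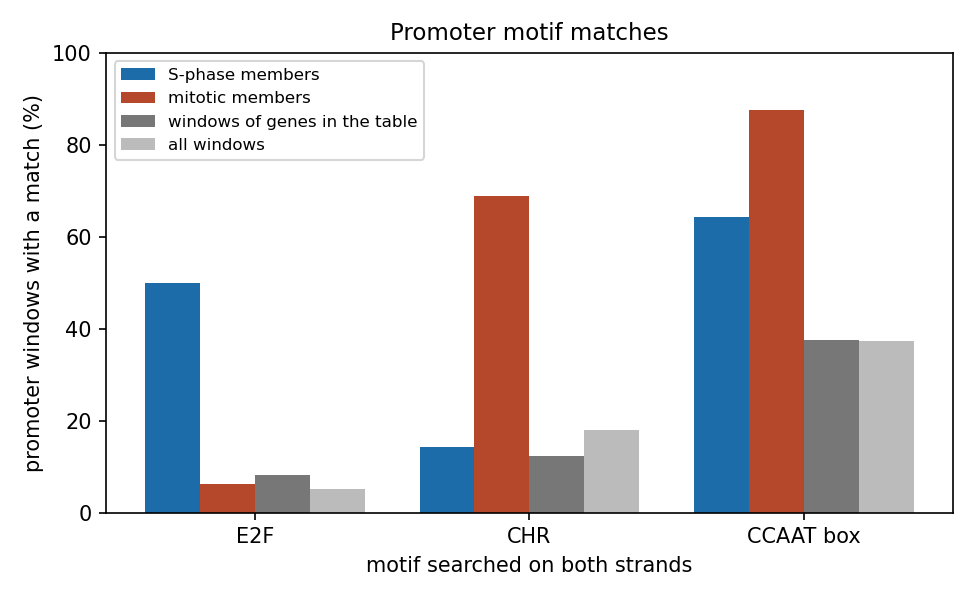
Share of promoter windows (vertical axis, %) with E2F, CHR or CCAAT letters on either strand, for 14 S-phase genes, 16 mitotic genes, 11740 windows of genes in the table and all 32851 windows. The E2F bar is 50% for the S-phase and 6.25% for the mitotic genes, and the CHR bar is 14.3% and 68.8%.

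The libraries were not alike in the cells they held. Alveolar macrophage markers were present throughout, with a summed level over the 16 listed markers of 6051 to 8464 FPKM in the knockout libraries and 4278 to 7656 in wild type, lowest in BLM3 and mostly from Chil3. The markers did not share a direction. Marco had 5.02 to 12.1 FPKM in the knockout libraries and 26.1 to 37.3 in wild type, and Cidec 31.0 to 42.1 and 2.24 to 12.7. BLM3 correlated with the other wild-type libraries at only 0.926 and 0.936 over all genes, against 0.984 between BLM1 and BLM2 and 0.98 to 0.982 within the knockout libraries. The 7 listed neutrophil markers summed to 2767 FPKM in BLM3, against 87.2 to 115 in the knockout libraries and 132 and 135 in BLM2 and BLM1. Ly6g, which defines neutrophils, was listed at 0 in A20-3, A20-4, BLM1 and BLM2. S100a8 was nonetheless present there, at 40.0, 32.3, 82.6 and 78.0 FPKM, against 861 in BLM3. Unlike the other listed neutrophil markers, Ltf was not highest in BLM3 (28.9 FPKM) but in A20-1 (35.5). Tnfaip3, the targeted gene, had 8.44, 12.9 and 6.8 FPKM in A20-1, A20-3 and A20-4, against 4.47, 2.18 and 21.6 in BLM1, BLM2 and BLM3 (limma adjusted p = 0.734; exact two-sided permutation p = 1, where 0.1 is the smallest possible). Its whole-gene level does not separate the groups. Without BLM3, Tnfaip3 was 1.27 ± 0.31 higher in the knockout on the log2(FPKM + 1) scale (SE; limma adjusted p = 0.0755), the direction opposite to a loss of the transcript. BLM3 held its highest value, so a larger difference follows from that choice. Without BLM2, its lowest library, the difference was -0.14 ± 0.61, and without BLM1 it was 0.25 ± 0.80 (SE). All directions below are therefore those between libraries as labelled. The number of reads behind each value is unknown.

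Replication and mitosis transcripts were measurable but modest in all 6 libraries. Over the 36 genes, the mean level per gene had a median of 4.23 FPKM, against 6.59 over the whole table. Pcna, the sliding clamp that also serves DNA repair, stood far above the rest at 53.7 FPKM, and Mcm4, the next, had 12.2. The lowest were the licensing factor Cdc6 at 0.916 and the kinetochore protein Cenpf at 0.998, both just under the mean FPKM of 1 required for testing, so 34 of the 36 genes were tested, 16 S-phase and 18 mitotic.

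No replication or mitosis gene was called different between the knockout and wild-type libraries after correction over 10696 genes. With limma on log2(FPKM + 1), 0 of 34 rose and 0 fell at an adjusted p under 0.05, where 0.252% of all genes rose and 0.851% fell, 1.1% in all. A count of 0 among 34 genes lies near these shares, so it does not show that the genes are unchanged. At an unadjusted p under 0.05, 5 of 34 were higher and 0 lower, where 11% of all genes were higher and 9.3% lower. Those 5 were Mcm4, Mcm7, E2f1, Ccne2 and Top2a. The difference was positive for 28 of the 34 and for 52.9% of all genes, with a median of 0.20 for the S-phase and 0.16 for the mitotic genes and 0.02 over all genes tested. These genes vary together, so the count of positive differences is not a count of independent results. The 95% confidence intervals had a median half-width of 0.36 for the S-phase and 0.50 for the mitotic genes on the log2 scale.

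**Figure D2:**
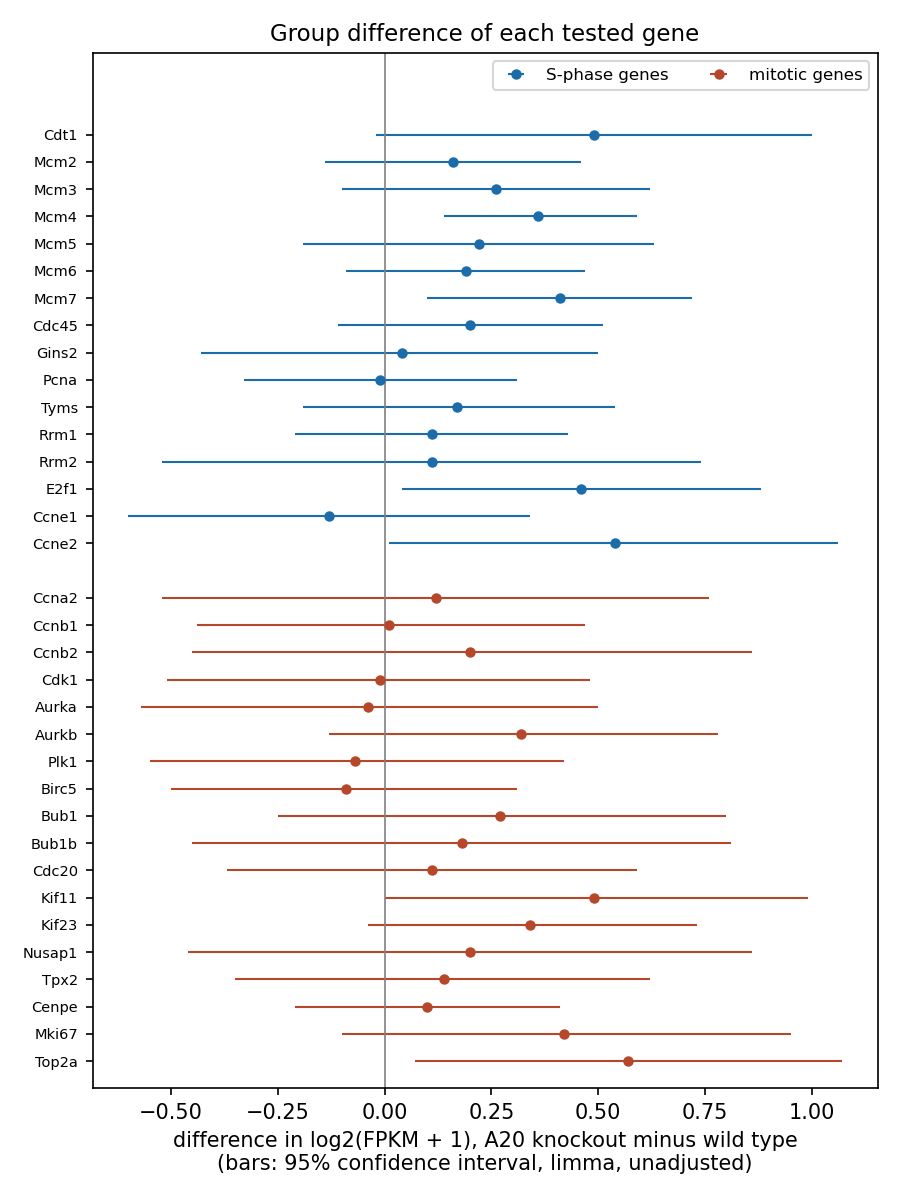
Difference in log2(FPKM + 1), knockout minus wild type (horizontal axis), for the 16 S-phase and 18 mitotic genes tested, with unadjusted 95% confidence intervals from limma (3 libraries per group). The intervals of Mcm4, Mcm7, E2f1, Ccne2 and Top2a lie above 0, and none lies below 0.

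The wild-type libraries varied more among themselves than the knockout libraries did. Averaged over the 17 S-phase genes, log2(FPKM + 1) in libraries A20-1, A20-3 and A20-4 came to 2.81, 2.87 and 2.82, against 2.44, 2.84 and 2.53 in BLM1, BLM2 and BLM3. Over the 19 mitotic genes it was 2.43, 2.40 and 2.29 in the knockout libraries, against 1.98, 2.63 and 1.96 in wild type. BLM2 lay within the knockout range for S-phase genes and above it for mitotic genes, while BLM1 and BLM3 lay below it for both. The group means were 2.83 ± 0.03 in the knockout and 2.60 ± 0.21 in wild type for S-phase genes, and 2.38 ± 0.07 in the knockout and 2.19 ± 0.38 in wild type for mitotic genes (SD, n = 3 libraries each). The wild-type SD was the larger for 33 of the 36 genes, 14 of 17 S-phase and 19 of 19 mitotic, where it was the larger for 61.6% of the table.

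**Figure D3:**
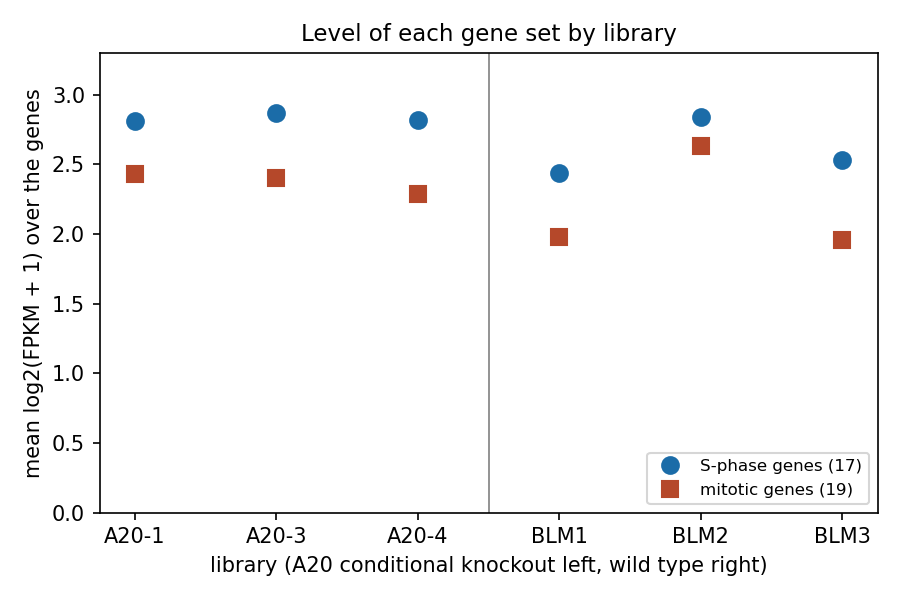
Mean of log2(FPKM + 1) over the 17 S-phase genes (circles) and the 19 mitotic genes (squares) in each library (horizontal axis). Knockout libraries sit between 2.81 and 2.87 for S-phase and 2.29 and 2.43 for mitotic genes, and wild-type libraries between 2.44 and 2.84 and between 1.96 and 2.63, with BLM2 the highest of the wild type.

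BLM2 was above both other wild-type libraries for 15 of 17 S-phase and 19 of 19 mitotic genes, where this held for 26.7% of the table. It was the highest of all 6 libraries for 6 S-phase and 13 mitotic genes, where this held for 11.7% of the table. BLM1 was the lowest library for 23 of the 36 genes (9.5% of the table) and BLM3 for 12 (26.5% of the table). The ratio of BLM2 to the mean of BLM1 and BLM3 had a median of 1.34 over the S-phase genes (range 0.889 to 2.56) and 1.77 over the mitotic genes (range 1.36 to 2.21). BLM2 also had the smallest gap between the sets. The S-phase mean minus the mitotic mean, on the log2(FPKM + 1) scale, came to 0.38, 0.47 and 0.52 in A20-1, A20-3 and A20-4, against 0.46, 0.21 and 0.56 in BLM1, BLM2 and BLM3, so the groups overlapped in this measure.

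In bulk RNA, more cycling cells and more of these transcripts in each cycling cell cannot be told apart. Markers of other cell types also varied among the libraries. The 9 B and plasma cell markers summed to 53, 37.6 and 46.2 FPKM in A20-1, A20-3 and A20-4, against 132, 41.4 and 108 in BLM1, BLM2 and BLM3. The sums of B and plasma cell markers were thus high in BLM1 and BLM3, the libraries in which the replication and mitosis genes were low. Not every marker followed: Cd22 was lowest of the 6 libraries in BLM3 (17.1 FPKM), and Jchain had 2.34 FPKM in A20-3 against 2.20 in BLM1. The 13 T and NK cell markers summed to 213 to 268 FPKM in the knockout libraries. In BLM1, BLM2 and BLM3 they summed to 169, 130.2 and 431. These sums were lowest in BLM2, where the mitotic genes were highest, and next lowest in BLM1, where the mitotic genes were low. The part of B, T and NK cells in the differences was not tested. Dendritic cell markers (8 genes) summed to 72 to 79.4 FPKM in the knockout libraries and 72.7 to 139 in wild type. The 12 markers of recruited macrophages summed to 2344 to 3327 FPKM in the knockout libraries and 6086 to 9863 in wild type, mostly from Spp1. Their mean log2(FPKM + 1) was 4.94 to 5.44 in the knockout libraries and 6.30 to 6.85 in wild type, highest in BLM3. Within the list, Fn1, Ly6c2, Plac8 and Cx3cr1 overlapped between groups. Cx3cr1 had 7.32, 4.35 and 3.43 FPKM in the knockout libraries, against 2.45, 2.75 and 3.79 in wild type. The 11 epithelial markers had sums of 463 to 514 FPKM in the knockout libraries and 105 to 295 in wild type, but their mean log2(FPKM + 1) overlapped, at 3.93, 4.33 and 4.37 in the knockout libraries and 4.23, 3.97 and 3.06 in wild type. For the 5 listed erythroid markers the sums were 188 to 3551 FPKM in the knockout libraries and 317 to 2484 in wild type, and for the 3 listed stromal and endothelial markers 2.32 to 5.63 in the knockout libraries and 3.47 to 7.6 in wild type.

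**Figure D4:**
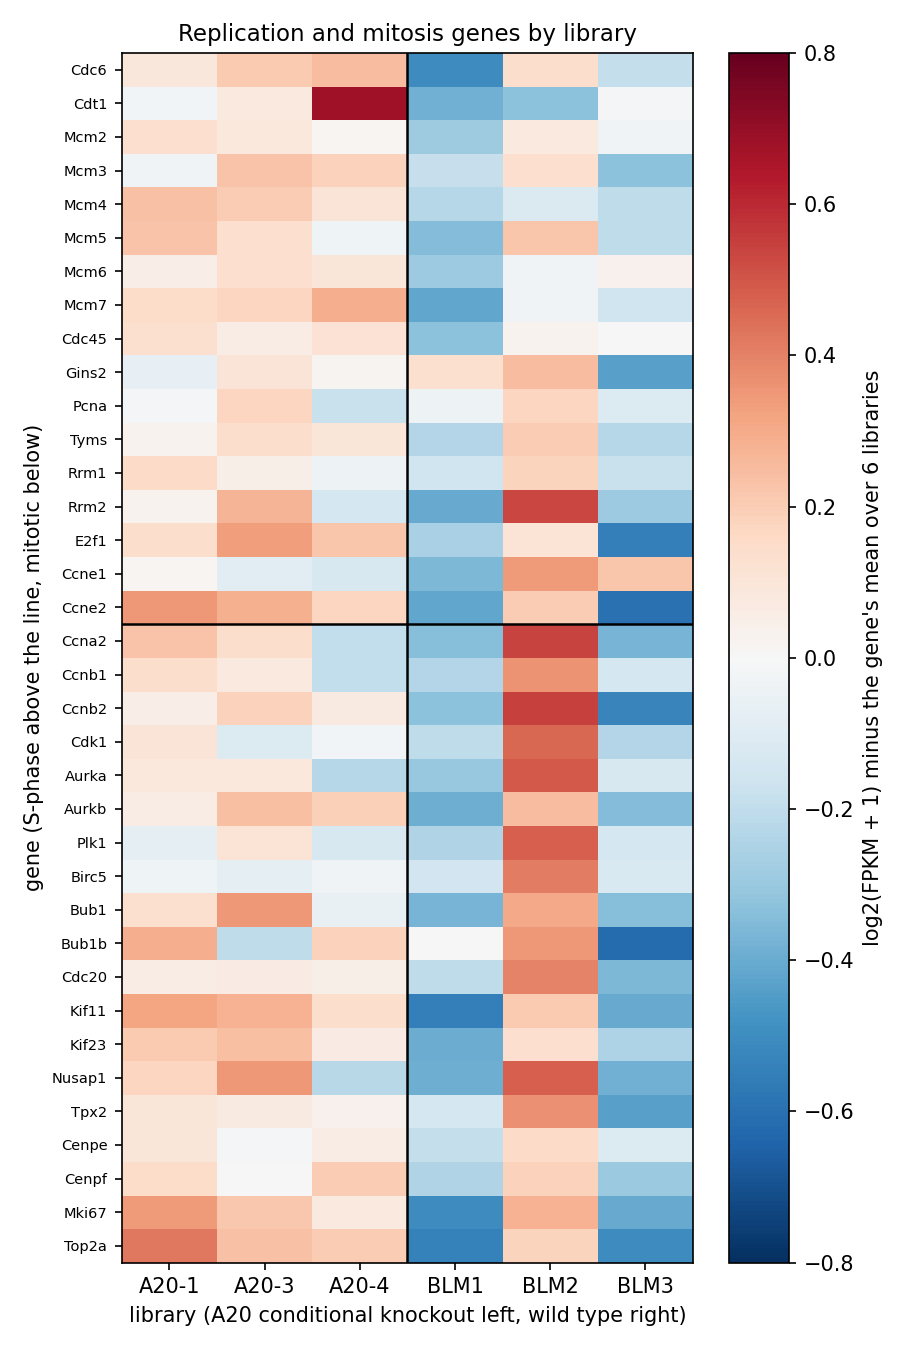
Each gene (rows, S-phase above the black line and mitotic below) in each library (columns, knockout left and wild type right), as log2(FPKM + 1) minus the gene's mean over the 6 libraries. BLM2 is above BLM1 and BLM3 in all 19 mitotic rows, and 23 of the 36 rows have their lowest value in BLM1.

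Among the licensing and helicase genes, all 9 tested had a positive difference, between 0.04 for Gins2 and 0.49 for Cdt1. Mcm4 (ENSMUSG00000022673.4, GRCm38 chromosome 16, 15623897 to 15637400, minus strand), a catalytic subunit of the replicative helicase, had 14.4, 14.1 and 13.1 FPKM in A20-1, A20-3 and A20-4, against 10.2, 11.1 and 10.4 in BLM1, BLM2 and BLM3. The groups did not overlap, and the difference was 0.36 ± 0.09 (SE; limma adjusted p = 0.114), the smallest p of the 34. Mcm7 (ENSMUSG00000029730.16, chromosome 5, 138164583 to 138172422, minus strand), another helicase subunit, had 10, 10.2 and 11.2 FPKM in the knockout libraries, against 6.45, 8.76 and 7.91 in wild type. Its groups were apart too, with a difference of 0.41 ± 0.13 (SE; limma adjusted p = 0.162). The other subunits had mean FPKM of 4.44 ± 0.222 and 3.90 ± 0.621 for Mcm2, 12.4 ± 1.26 and 10.3 ± 1.88 for Mcm3, 6.11 ± 0.646 and 5.18 ± 1.31 for Mcm5, and 12.2 ± 0.333 and 10.6 ± 1.35 for Mcm6 in knockout and wild type (SD, n = 3 each). The median over the Mcm2 to Mcm7 subunits was 10.5, 11.4 and 11.7 FPKM in A20-1, A20-3 and A20-4, against 7.76, 9.91 and 8.32 in BLM1, BLM2 and BLM3, so every knockout library was above every wild-type library in this value. Taken singly, Mcm4, Mcm6 and Mcm7 were apart in this way and Mcm2, Mcm3 and Mcm5 overlapped between groups. Such a separation held for 15.3% of the table.

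Cdt1, which loads the helicase and is then destroyed, had 6.25, 6.77 and 10.8 FPKM in the knockout libraries, against 4.64, 4.86 and 6.28 in wild type. A20-4 was high, A20-1 was just below BLM3, and the difference was 0.49 ± 0.21 (SE; limma adjusted p = 0.26). Its partner Cdc6, not tested, had 1.01, 1.18 and 1.24 FPKM in the knockout libraries, against 0.331, 1.08 and 0.652 in wild type. Cdc45, which activates the helicase, averaged 3.03 ± 0.0975 FPKM in the knockout and 2.53 ± 0.461 in wild type, and Gins2, a GINS subunit, 2.03 ± 0.184 in the knockout and 2.01 ± 0.707 in wild type (SD, n = 3 each). The values of Cdc45 did not overlap between groups, and those of Gins2 did.

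The clamp and nucleotide genes had differences of -0.01 to 0.17. Pcna had 53.1, 60.2 and 47.1 FPKM in the knockout libraries, against 51.9, 60.3 and 49.4 in wild type, a difference of -0.01 with a 95% interval of -0.33 to 0.31. Rrm2, the S-phase subunit of ribonucleotide reductase, had 9.63, 11.6 and 8.47 FPKM in the knockout libraries, against 6.89, 14.1 and 7.51 in wild type. BLM2 was highest and BLM1 and BLM3 lowest, and the difference was 0.11 (interval -0.52 to 0.74). Rrm1, the other reductase subunit, averaged 5.09 ± 0.413 and 4.68 ± 0.82 FPKM, and Tyms, thymidylate synthase, 1.53 ± 0.0928 and 1.27 ± 0.41, in knockout and wild type (SD, n = 3 each).

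The G1/S regulators had differences of both signs, and none passed the adjusted threshold. E2f1 (ENSMUSG00000027490.17, chromosome 2, 154559407 to 154569892, minus strand), which drives the S-phase genes, had 11.6, 13.4 and 12.3 FPKM in the knockout libraries, against 8.56, 11.3 and 6.83 in wild type. Every knockout library was above every wild-type library, though BLM2 was close, and the difference was 0.46 ± 0.18 (SE; limma adjusted p = 0.212). The Cdk2 partner cyclin E2, Ccne2, had 2.02, 1.89 and 1.67 FPKM in the knockout libraries, against 0.781, 1.73 and 0.569 in wild type (0.54 ± 0.22, SE; adjusted p = 0.236), where BLM2 reached the knockout range. Its paralog Ccne1 had 2.63, 2.38 and 2.29 FPKM in the knockout libraries, against 1.80, 3.55 and 3.19 in wild type. Here BLM2 and BLM3 were above the knockout libraries and BLM1 below them (-0.13 ± 0.20, SE; adjusted p = 0.728).

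The cyclins and kinase that start mitosis each had their highest value of the 6 libraries in BLM2. Cdk1 had 2.89, 2.36 and 2.57 FPKM in the knockout libraries, against 2.14, 3.98 and 2.07 in wild type, a difference of -0.01 with an interval of -0.51 to 0.48. Ccnb2, cyclin B2, had 9.41, 10.4 and 9.58 FPKM in the knockout libraries, against 7.01, 13.7 and 5.96 in wild type. Ccna2, cyclin A2, had 6.16, 5.73 and 4.33 FPKM in the knockout libraries, against 3.82, 7.86 and 3.71 in wild type. For Cdk1, Ccnb2 and Ccna2 alike the knockout values lay between BLM2 and the other wild-type libraries. Ccnb1, cyclin B1, averaged 2.38 ± 0.40 FPKM in the knockout and 2.38 ± 0.782 in wild type (SD, n = 3 each).

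BLM2 was likewise highest for the mitotic kinases Aurka, Aurkb and Plk1 and for Birc5, survivin, which acts with Aurora B. Plk1 had 4.79, 5.60 and 4.59 FPKM in the knockout libraries, against 4.18, 7.51 and 4.55 in wild type (-0.07, interval -0.55 to 0.42). Birc5 averaged 3.75 ± 0.0844 and 4.14 ± 1.19 FPKM, Aurka 2.40 ± 0.409 and 2.58 ± 1.08, and Aurkb 3.26 ± 0.266 and 2.47 ± 0.908 in knockout and wild type (SD, n = 3 each). Differences in this quartet ran from -0.09 to 0.32, with limma adjusted p from 0.374 to 0.94.

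Of the spindle checkpoint genes, Bub1, a checkpoint kinase, averaged 2.18 ± 0.453 and 1.68 ± 0.754 FPKM, and Bub1b, which restrains Cdc20, averaged 9.90 ± 1.87 and 8.87 ± 3.16 in knockout and wild type (SD, n = 3 each). Cdc20, the activator of the anaphase-promoting complex, had 4.77, 4.80 and 4.72 FPKM in the knockout libraries, against 3.81, 6.30 and 3.32 in wild type. The knockout libraries were nearly equal for Cdc20, with wild-type libraries on both sides of them.

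Motor and spindle genes had positive differences in all 5 tested, from 0.10 for the kinetochore motor Cenpe to 0.49 for Kif11. Kif11, the motor that pushes spindle poles apart, had 4.94, 4.80 and 4.27 FPKM in the knockout libraries, against 2.27, 4.53 and 2.61 in wild type. BLM2 lay inside the knockout range, and the others were well below it (0.49 ± 0.21, SE; limma adjusted p = 0.248). Kif23, a motor of the central spindle, averaged 3.27 ± 0.263 and 2.40 ± 0.667 FPKM, Nusap1, a spindle microtubule binder, 3.47 ± 0.862 and 3.01 ± 1.5, and Tpx2, which activates Aurora A, 4.48 ± 0.117 and 4.11 ± 1.46 in knockout and wild type (SD, n = 3 each). Cenpe averaged 2.37 ± 0.125 and 2.16 ± 0.405 FPKM, and Cenpf, not tested, 1.15 ± 0.155 and 0.845 ± 0.356, in knockout and wild type (SD, n = 3 each).

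Top2a (ENSMUSG00000020914.17, chromosome 11, 98992943 to 99024189, minus strand), the topoisomerase that untangles sister chromatids, had 9.83, 8.51 and 8.29 FPKM in the knockout libraries, against 4.55, 8.15 and 4.71 in wild type. It was the only mitotic gene whose groups did not overlap, with a difference of 0.57 ± 0.21 (SE; limma adjusted p = 0.197). Mki67, the Ki-67 proliferation marker that coats mitotic chromosomes, had 14.4, 13.1 and 11.8 FPKM in the knockout libraries, against 7.55, 13.7 and 8.16 in wild type. BLM2 again matched the knockout libraries (0.42 ± 0.22, SE; adjusted p = 0.324).

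Counted over both sets, every knockout library was above every wild-type library for 5 of 17 S-phase genes (Mcm4, Mcm6, Mcm7, Cdc45 and E2f1) and 1 of 19 mitotic genes (Top2a), where this held for 15.3% of the table. None of the 36 had every knockout library below wild type, which held for 13.9% of the table. BLM2 weighed on most of these values. Without it the median difference was 0.35 for S-phase and 0.41 for mitotic genes, and 8 S-phase and 11 mitotic genes had an unadjusted p under 0.05, all higher in the knockout, where 9.88% of all genes were. Still 0 passed the adjusted threshold, the smallest limma adjusted p being 0.0623 for Top2a, where 0.14% of all genes rose and 0.692% fell. BLM2 was left out here because it was the highest wild-type library for most of these genes, so larger differences follow from that choice. Without BLM1, the lowest library for most of them, the medians were 0.10 for S-phase and 0.09 for mitotic genes, and 0 passed the adjusted threshold, where 0.0% of all genes rose and 0.0375% fell. At an unadjusted p under 0.05, Mcm4 was then higher and Ccne1 lower and 0 mitotic genes passed, where 8.33% of all genes were higher and 6.9% lower. Without BLM3, the library with high neutrophil markers, the medians were 0.18 and -0.01. Of the genes, 0 passed the adjusted threshold, where 154 of all genes rose (1.45%) and 271 fell (2.55%). At these shares a count of 0 is not particular to these genes. With limma's array weights, which let BLM1 dominate wild type, 6 S-phase and 3 mitotic genes rose, where 8.81% of all genes did.

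Further genes of the same processes were examined as lists. Of 47 tested replication genes beyond the 17, such as the polymerases, clamp loader and origin complex, 0 were called by limma, with 2 higher and 3 lower at an unadjusted p under 0.05 and a median of 0.06. Over all genes 0.252% rose and 0.851% fell, and 11% were higher and 9.3% lower at the unadjusted threshold. Tipin, a replication fork protector, had 4.64, 3.29 and 2.97 FPKM in the knockout libraries, against 5.12, 5.87 and 6.07 in wild type (-0.54 ± 0.16, SE; adjusted p = 0.138). Rfc2, a clamp loader subunit, averaged 6.45 ± 0.476 and 8.07 ± 0.429 FPKM, and Orc3, an origin recognition subunit, 5.54 ± 0.57 and 7.16 ± 0.823, in knockout and wild type (SD, n = 3 each). These 3 were named for the smallest p of that list, so separate groups follow from that choice. All were lower in the knockout libraries without overlap, a separation that held for 13.9% of the table. Over the 47, 29 differences were positive and 18 negative.

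Of 54 further mitosis genes tested, 0 were called, with 7 higher and 0 lower at an unadjusted p under 0.05, where 11% and 9.3% of all genes were, and a median of 0.11. Cdc25b, the phosphatase that activates Cdk1, had 15.2, 20.9 and 20 FPKM in the knockout libraries, against 10.5, 12.6 and 9.76 in wild type (0.71 ± 0.16, SE; limma adjusted p = 0.0894). Wee1, the kinase that restrains Cdk1, had 3.98, 5.23 and 6.65 FPKM in the knockout libraries, against 2.38, 3.03 and 2.40 in wild type (0.79 ± 0.18, SE; adjusted p = 0.0957). Both regulators of Cdk1, of opposite action, were thus higher in every knockout library, while Cdk1 itself overlapped. The 2 were named for the smallest p of their list, so separate groups follow from that choice. The condensin subunit Ncapd2 averaged 7.11 ± 0.651 FPKM in the knockout and 4.85 ± 0.804 FPKM in wild type (SD, n = 3 each; adjusted p = 0.13).

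Among 18 tested genes of the E2F, RB and DREAM regulators, 0 were called, with 3 higher and 0 lower at an unadjusted p under 0.05, where 11% and 9.3% of all genes were, and a median of 0.18. Foxm1, the factor that drives mitotic genes, had 1.32, 3.14 and 2.15 FPKM in the knockout libraries, against 0.469, 0.944 and 0.432 in wild type (0.96 ± 0.24, SE; limma adjusted p = 0.109). Its groups did not overlap, so BLM2 was below every knockout library, but Foxm1 was named for its small p. Rbl1, the pocket protein p107 that represses E2F targets, had 13.0, 9.25 and 10.7 FPKM in the knockout libraries, against 7.08, 7.69 and 6.25 in wild type (0.57 ± 0.15, SE; adjusted p = 0.113). The repressive E2F family member E2f6 averaged 1.84 ± 0.249 FPKM in the knockout and 1.28 ± 0.139 FPKM in wild type (SD, n = 3 each; adjusted p = 0.216).

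Of 16 tested subunits and regulators of the anaphase-promoting complex, the ubiquitin ligase that ends mitosis, 0 were called, with 1 higher and 2 lower at an unadjusted p under 0.05, where 11% and 9.3% of all genes were, and a median of -0.03. Anapc13 averaged 8.13 ± 0.364 and 10.8 ± 1.05 FPKM, Anapc15 2.11 ± 0.373 and 3.22 ± 0.385, and Anapc2 30.5 ± 1.95 and 25.0 ± 2.07, in knockout and wild type (SD, n = 3 each). For these subunits limma adjusted p ran from 0.134 to 0.215. BLM2 was the highest library for 12 of the 49 listed further replication genes and 28 of the 63 further mitosis genes, but for 1 of 19 listed E2F, RB and DREAM genes and 3 of 16 of the anaphase-promoting complex.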

How the data were processed

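Expression was measured by RNA-seq in 6 libraries. The deposited table gives FPKM, a level scaled by gene length and library size, per the file headers. GRCm38 is named as build, per the submitters' processing notes. Aligner and quantifier were not given in the sources used here, nor were annotation release and strand setting. Libraries came from a stranded KAPA kit, per the labels' protocols. Columns were assigned to groups by name: those with A20 to the knockout, those named only for the exposure to wild type. No label ties a column's number to a title's replicate number, and the knockout columns are numbered 1, 3 and 4.

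Low FPKM values of genes with 1 transcript in GENCODE M21, times length, gave 22.2% to 30.0% of values within 0.1 of a whole number of fragments at the best step, against 20% for evenly spread values, so reads could not be recovered and values carry no counting interval. The 10696 genes averaging 1 FPKM or more over the 6 libraries were transformed to log2(FPKM + 1) and tested with limma 3.58.1 in R 4.3.3 (eBayes with trend), two-sided, knockout minus wild type, Benjamini-Hochberg over all genes, threshold 0.05; this scale understates changes of low genes. On values simulated for the 10696 genes of this comparison, 62 of 100 genes changed by a log2 size of 1 and 88 of 100 changed by 2 were recovered, with 6 false calls. Noise was drawn independently for each gene with the same spread in all 6 libraries, unlike these libraries. Both sizes exceed the members' largest difference of 0.57, so recovery of differences of the members' size was not measured. Members, gene lists, tests and motifs were chosen with earlier results of these data known. Named genes are all 36 members, Tnfaip3 and the 3 smallest p of each further list. Promoter sequences are RefSeq's on GRCm38.p6; the printed ones were chosen after their motifs were seen, among those with a match before the start. Alternatives were another pseudocount (0.1 or 5), no minimum or a minimum of 5, rescaling to TPM, quantile normalization, no trend, array weights and leaving out each library.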

Additional observations from a re-analysis of the deposited data

How the results depend on the processing

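No paired analysis was possible because no label ties the column numbers to the replicate numbers of the titles, and the knockout columns carry other numbers than their titles. Of the 34 tested members, 20 kept their sign in every alternative and 14 changed it in at least 1; none of those was called in any. Except with array weights, 0 members were called in any alternative. Array weights, which gave BLM1 a weight of 6.09 and BLM3 of 0.229, so that BLM1 dominates the wild-type mean, called 942 rises and 992 falls over all genes (8.81% and 9.27%), among them 6 S-phase rises (Mcm4, Mcm7, E2f1, Cdt1, Ccne2, Mcm6) and 3 mitotic rises (Top2a, Kif11, Kif23), with limma adjusted p from 0.0169 to 0.0483. In the further lists they called 3 rises and 3 falls in replication, 7 rises in mitosis, 2 rises among E2F, RB and DREAM genes and 1 fall in the anaphase-promoting complex.

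Over all genes, 27 rose and 91 fell; a minimum mean FPKM of 5 gave 17 and 58, and TPM gave 41 and 64, or 39.0% rises against 22.9%, with the median of all genes at 0.10. Leaving out 1 library gave 0 (without A20-3, A20-4 or BLM1) to 154 rises and 0 (without A20-3) to 271 falls; both highest counts came without BLM3. The median difference ran from 0.10 (without BLM1) to 0.35 (without BLM2) for S-phase genes, and from -0.01 (without BLM3) to 0.41 (without BLM2) for mitotic genes. Sign changes under TPM were Pcna 0.07, Cdk1 0.07, Aurka 0.04 and Plk1 0.01; under quantile normalization Pcna 0.02, Cdk1 0.02 and Aurka 0.00; and under array weights Gins2 -0.11, Ccne1 0.20, Cdk1 0.13, Birc5 0.05, Aurka 0.17 and Plk1 0.12. For these the cause was not tested. Leaving out 1 library gave ranges that cross 0 of -0.10 to 0.07 for Pcna, -0.17 to 0.17 for Gins2, -0.07 to 0.40 for Rrm2, -0.35 to 0.00 for Ccne1, -0.10 to 0.20 for Ccnb1, -0.01 to 0.53 for Ccnb2, -0.04 to 0.42 for Ccna2, -0.14 to 0.21 for Cdk1, -0.19 to 0.09 for Birc5, -0.08 to 0.40 for Bub1b, -0.20 to 0.20 for Aurka, -0.20 to 0.16 for Plk1, -0.04 to 0.34 for Cdc20, -0.04 to 0.35 for Tpx2 and -0.14 to 1.27 for Tnfaip3.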
